A study of Mus musculus with 70 samples.

Results

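Imprinted genes are a small class of mammalian genes that are read mainly or only from the copy inherited from the mother or from the copy inherited from the father. Here, the expression of 36 imprinted protein-coding genes was followed across an atlas of mouse brain regions that govern energy balance, from the cortex to the caudal hindbrain, at an embryonic and an adult stage, and in mouse embryonic stem cells (mESC). The 36 genes were taken by name from a fixed list of imprinted genes and are 36 of the 34677 genes in the expression table. The list was chosen by name, with earlier results of these data known. All 36 passed the filter on low counts and were tested among 19980 genes.

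The atlas held 70 RNA-Seq libraries. Of these, 57 came from punches of 18 brain regions of male C57BL/6NTac mice at P56, 9 from 4 dissected brain regions of C57BL/6NTac embryos at E14.5, and 4 from 2 mESC lines, B6-1 and B6-2, each of them 1 clone with 2 libraries. Adult regions had 2 to 4 libraries each, and nearly every brain library was a pool of several animals, so the spread between libraries is a spread between pools. The study used fewer animals than its pools would need without sharing, so regions share animals, which the labels do not tie to libraries, and the tests took libraries as independent. The labels name no transgene and no drug treatment. The mESC, derived from C57BL/6 mice, had been moved off their feeder cells before collection. Per the study's methods, their medium then held added small-molecule kinase inhibitors and leukemia inhibitory factor. The adult regions were the arcuate (ARH), dorsomedial (DMH), paraventricular (PVH) and ventromedial (VMH) nuclei and the lateral area (LHA) of the hypothalamus, the ventral tegmental area (VTA), the nucleus accumbens (ACB), the frontal pole (FRP), anterior cingulate (ACA) and entorhinal (ENT) cortex, the parabrachial nucleus (PB), the dorsal vagal complex (DVC) and solitary tract nucleus (NTS), the cerebellar nuclei (CBN), and the cerebellar central lobule (CENT2), culmen (CUL4-5), uvula (UVU) and flocculus (FL). The embryonic regions were forebrain (F, 1 library), midbrain (M, 2), hindbrain (H, 3) and the terminal and peduncular hypothalamus (THy/PHy, 3).

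An imprinted gene carries a methylation mark set in the germ line on 1 of its parental copies, and neighbouring genes often share 1 such control region. Many members act on growth, placental transfer or energy balance. In Prader-Willi syndrome, a disorder of feeding and body weight, the paternal copy of a region of human chromosome 15 is lost. That region corresponds to a mouse region that holds Snrpn, Ndn, Magel2 and Mkrn3. Peg12 lies in the same domain of the mouse. By background knowledge, 19 of the 36 members are listed as read from the paternal copy and 14 from the maternal copy. For 3 (Grb10, Blcap and Gnas) the copy depends on the transcript. Whether each member is imprinted in the tissues studied here was not measured. The mice were of 1 inbred strain and parental copies were not separated, so all values below are totals over both copies. Levels are TPM, the share of a transcript in its library scaled to a fixed sum, which correct for transcript length. Imprinted non-coding genes such as Meg3 and H19 were not analysed here.

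To show what the start regions of these genes look like at the letter level, 300 bases around 6 transcription starts are given. They run from 250 bases before to 50 after the start and were taken from RefSeq (GRCm38.p6). They were not chosen as the methylated control regions. Capitals mark CG, the dinucleotide that carries DNA methylation. The set was chosen because Peg3 and Usp29 share 1 start region, Nnat reached the highest level of the members in the embryonic hypothalamus, and Gnas and Grb10 have several starts whose transcripts were measured apart.
Usp29, with the start of Peg3 on the other strand in the same window, chr7:6730333-6730632, plus strand: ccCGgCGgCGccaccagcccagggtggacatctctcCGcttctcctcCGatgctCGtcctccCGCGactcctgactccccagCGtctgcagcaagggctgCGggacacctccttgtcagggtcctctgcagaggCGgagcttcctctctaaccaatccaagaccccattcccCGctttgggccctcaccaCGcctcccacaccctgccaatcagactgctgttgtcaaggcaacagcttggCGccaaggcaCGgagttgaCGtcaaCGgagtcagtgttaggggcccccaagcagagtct
Nnat, chr2:157559828-157560127, plus strand: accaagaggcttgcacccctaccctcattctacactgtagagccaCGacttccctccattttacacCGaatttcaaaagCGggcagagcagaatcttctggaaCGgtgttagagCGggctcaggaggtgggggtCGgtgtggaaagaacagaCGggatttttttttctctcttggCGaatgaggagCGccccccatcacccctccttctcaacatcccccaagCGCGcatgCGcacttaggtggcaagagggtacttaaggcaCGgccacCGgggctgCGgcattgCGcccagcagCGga
Gnas, most upstream start, chr2:174284070-174284369, plus strand: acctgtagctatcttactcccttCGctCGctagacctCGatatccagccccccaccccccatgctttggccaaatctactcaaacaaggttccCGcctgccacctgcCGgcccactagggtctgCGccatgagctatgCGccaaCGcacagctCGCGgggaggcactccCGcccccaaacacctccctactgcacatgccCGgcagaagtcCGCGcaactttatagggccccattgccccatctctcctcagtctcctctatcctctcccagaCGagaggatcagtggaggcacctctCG
Gnas, most downstream start shown, chr2:174329756-174330055, plus strand: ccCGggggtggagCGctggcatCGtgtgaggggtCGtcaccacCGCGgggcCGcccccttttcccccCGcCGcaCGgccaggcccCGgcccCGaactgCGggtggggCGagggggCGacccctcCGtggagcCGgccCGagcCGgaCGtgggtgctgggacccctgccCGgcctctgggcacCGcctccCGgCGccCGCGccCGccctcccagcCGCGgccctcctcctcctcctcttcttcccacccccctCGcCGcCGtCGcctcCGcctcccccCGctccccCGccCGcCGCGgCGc
Grb10, upstream start, chr11:12037371-12037670, minus strand: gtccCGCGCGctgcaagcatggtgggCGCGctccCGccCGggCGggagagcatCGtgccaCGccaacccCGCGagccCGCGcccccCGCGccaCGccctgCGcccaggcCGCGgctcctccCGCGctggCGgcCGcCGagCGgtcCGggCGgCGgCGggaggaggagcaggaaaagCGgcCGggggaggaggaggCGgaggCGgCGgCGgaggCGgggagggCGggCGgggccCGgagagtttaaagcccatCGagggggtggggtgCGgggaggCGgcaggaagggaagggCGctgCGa
Grb10, downstream start, chr11:12027922-12028221, minus strand: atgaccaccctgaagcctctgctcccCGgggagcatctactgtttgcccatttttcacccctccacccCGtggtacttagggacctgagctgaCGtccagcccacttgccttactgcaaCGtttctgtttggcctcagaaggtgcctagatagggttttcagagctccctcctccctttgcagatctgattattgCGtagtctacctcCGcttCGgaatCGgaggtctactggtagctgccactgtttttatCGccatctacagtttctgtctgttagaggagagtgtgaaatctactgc

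CG was frequent in these windows, with 17 in the window of Usp29, 17 in that of Nnat, 16 and 40 in the upstream and downstream windows of Gnas, and 45 and 9 in those of Grb10. RefSeq windows were matched for 30 of the 36 members, 45 windows in all. Windows of members on chromosome 18, where Impact lies, were left out. Of the 45, 36 held more CG than the median of 7 over all 32851 windows in the table. Peg3, a zinc-finger transcription factor, and Usp29, a ubiquitin peptidase, start 147 bases apart on opposite strands, and Peg10 and Sgce start 99 bases apart on chromosome 6. The letters TGACGTCA, the palindromic cAMP response element, searched on both strands, were found among the members only in the windows of Peg3 and Usp29. The same letters stand in 1.79% of all windows. Methylation was not measured, and a match is a description of the letters.

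Library totals ranged from 9074581 to 22229582 estimated counts (median 17016935). Genes that mark the dissected nuclei were highest in their own regions apart from a few such as Sim1, a PVH marker that was highest in THy/PHy and then in DMH and PVH. The libraries that stood apart were VTA replicate 1, in which 39.6% of TPM was mitochondrial, H replicate 1, which had the lowest total and 22.6% mitochondrial TPM, and NTS replicate 1, in which the summed TPM of 7 choroid plexus markers was 10783 against 10.2 for the NTS median.

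Imprinted genes were widely expressed. Each of the 36 members reached a mean of 1 TPM in at least 1 of the 24 groups, 34 in at least 1 adult region, and 26 in all 18 adult regions. The 2 members that did not reach it in the adult were Phlda2 and Ascl2, which limit placental growth and specify the trophoblast. Among the 34 members detected in the adult, the highest regional mean lay in a hypothalamic nucleus for 24 (70.6%), against 25.9% of all 17955 genes detected. Of these 24, 12 peaked in ARH, 8 in VMH, 3 in DMH and 1 in PVH. The plot of members by group shows the hypothalamic columns and the embryonic columns as the brightest.

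**Figure D1:**
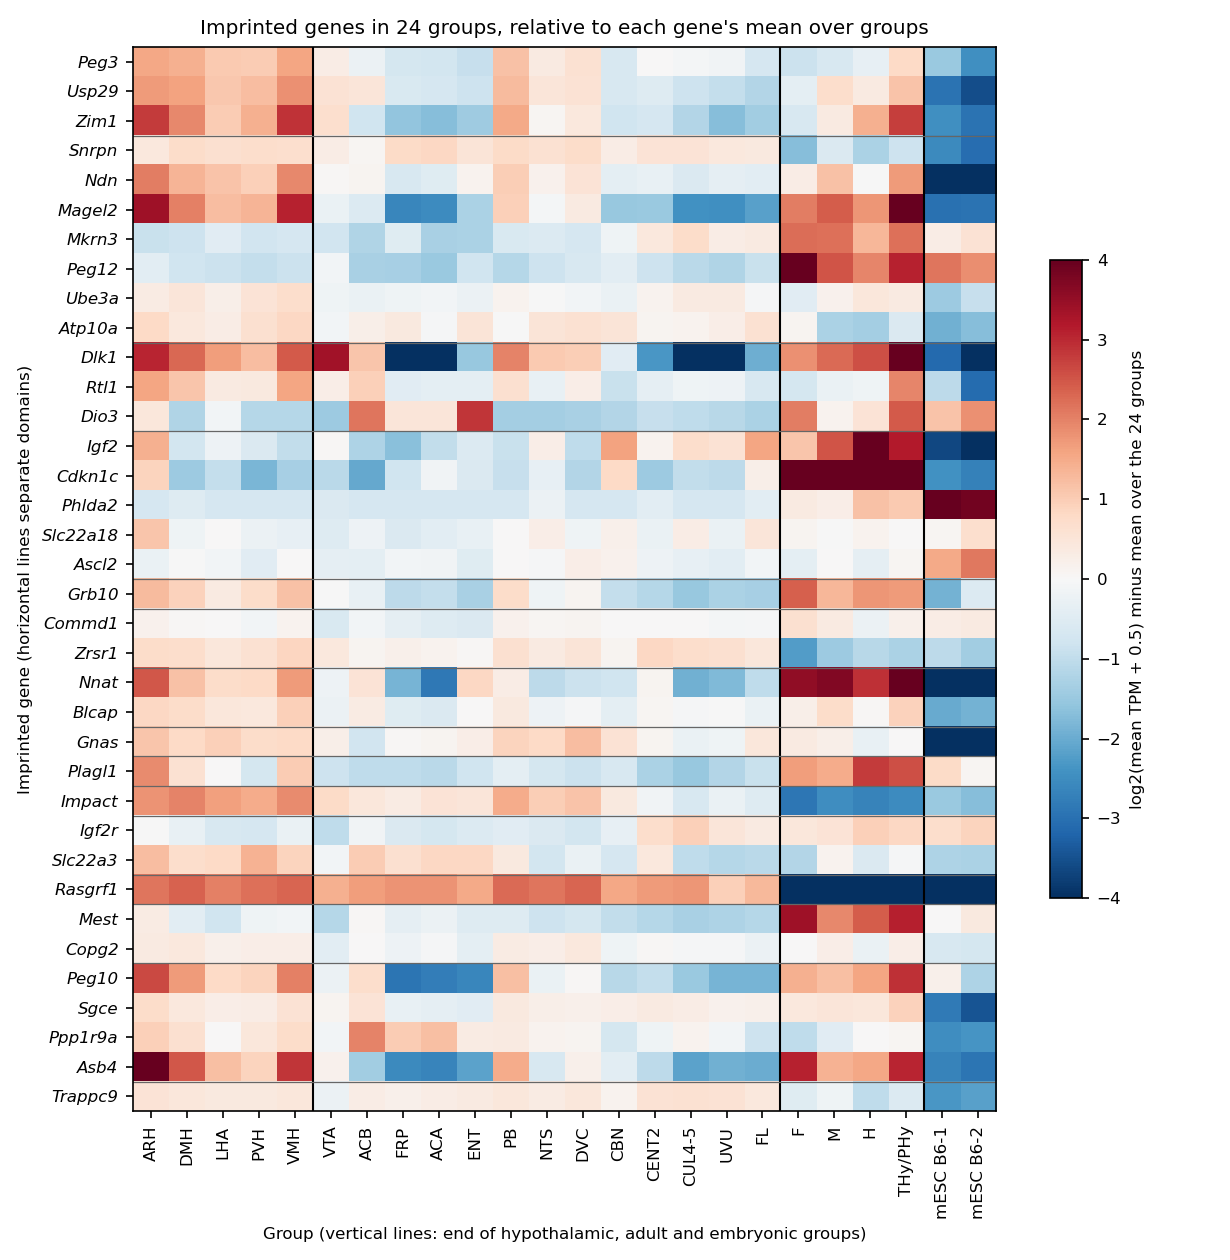
Mean expression of the 36 imprinted genes (rows) in the 24 groups (columns), as log2(TPM + 0.5) relative to the mean of each gene over the groups; rows are ordered by imprinted domain. Magel2, Asb4, Zim1 and Peg10 are high across the 5 hypothalamic nuclei and in THy/PHy, Rasgrf1 and Impact are low in every embryonic group, and most genes are low in the 2 mESC lines.

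The first comparison asked which imprinted genes were higher in the adult hypothalamus, the seat of the feeding circuits, than in the rest of the adult brain (14 libraries of 5 nuclei against 43 libraries of 13 regions). Of the 36 members, 14 were higher and 0 were lower. The largest differences were those of Dlk1, a transmembrane protein with EGF repeats, Asb4, a SOCS-box protein, Magel2, a MAGE-family protein linked to Prader-Willi syndrome, Zim1, a zinc-finger protein, and Peg10, a protein derived from a retrotransposon. In bulk tissue, more cells of a type and more RNA per cell cannot be told apart. Here and in the comparisons that follow, calls come from edgeR's quasi-likelihood test with Benjamini-Hochberg adjustment over all genes, with limits of 0.05 on the adjusted p and of 1 on the size of the log2 fold change. Of all genes tested, 6.11% were higher in the hypothalamus and 2.74% were lower. At an unadjusted p under 0.05, 2 members were lower (Mkrn3 and Igf2r), and DESeq2 also called 14 higher and 0 lower. The members' median log2 fold change was 0.38, against 0.00 for all genes, and 31 of the 36 were above 0. In no member did every hypothalamic library exceed every other adult library, which held for 0.101% of genes.

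Magel2 stood at 50.9, 55.5 and 50.8 TPM in the 3 ARH libraries, 38.4 and 45.5 in VMH, 22.5, 16.2, 23.0 and 17.5 in DMH, 9.32, 11.8 and 13.2 in LHA and 10.3 and 14.9 in PVH. Outside the hypothalamus it ranged from 0.0831 to 9.45 (median 1.35) TPM, with PB at 9.43, 9.37 and 9.45. All hypothalamic libraries apart from LHA replicate 1 were thus above PB, the highest of the other regions. The log2 fold change was 3.90 ± 0.16 (SE; adjusted p = 6.33e-27).

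Asb4 was at 77.5, 76.9 and 91.9 TPM in ARH, and the other hypothalamic libraries lay between 6.63 in PVH and 47.9 in VMH. Elsewhere it ranged from 0.0629 to 14.3 (median 0.994), again with PB at the top (11.1, 10.9 and 14.3). The hypothalamic mean was 31.4 TPM against 2.51, a log2 fold change of 3.97 ± 0.14 (adjusted p = 6.5e-29). Asb4 and Magel2 shared the order ARH above VMH and DMH, although they lie on different chromosomes, 6 and 7.

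Dlk1 differed from these genes in its peak. Its highest adult level was in VTA (150.02, 165 and 215 TPM), above ARH (128, 159.6 and 136), and it was low in the culmen (0.176, 0, 0.158 and 0.288) and the frontal pole (0.224, 0.417 and 0.269). The ranges of VTA and ARH overlapped. With region means weighed equally on the log scale, Dlk1 had a log2 fold change of 3.9997 ± 0.20 (adjusted p = 1.67e-23) between means of 82.4 and 28.8 TPM. With the 2 sets of libraries pooled as 2 groups, it was 1.37 and did not pass (adjusted p = 0.114).

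Peg10 reached 241, 240.2 and 269 TPM in ARH and 126 and 198 in VMH, and lay between 4.67 and 7.15 TPM in the libraries of FRP, ACA and ENT. Zim1, by contrast, was highest in VMH (49.8 and 40.7) and ARH (44.9, 42.3 and 40.2), whose ranges overlapped. Nnat, a proteolipid of neurons, was the most abundant of the called members, at 2364, 2558 and 2632 TPM in ARH and 44.2 to 909 (median 244) TPM outside the hypothalamus. Plagl1, a zinc-finger transcription factor, was at 52.4, 76.4 and 75.7 TPM in ARH but at 10.7 and 11.0 in PVH, within the 5.18 to 15.0 TPM of the other adult regions. The log2 fold changes of these 4 were 2.64 ± 0.11, 2.69 ± 0.13, 2.10 ± 0.13 and 1.61 ± 0.14, in this order, with adjusted p-values up to 9.03e-15.

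Peg3 ranged from 259.5 to 426 (median 369) TPM in the hypothalamus and from 56.6 to 319 (median 124) elsewhere, and its neighbour Usp29 from 60.9 to 108 (median 86.8) and from 9.73 to 77.2 (median 19.7). Only PB, at 312, 292 and 319 TPM for Peg3 and 70.3, 64.4 and 77.2 for Usp29, entered the hypothalamic range of both. Ndn, a MAGE-family protein of neurons that have left the cell cycle, had means of 406 and 137 TPM, Grb10, an adaptor that dampens insulin receptor signalling, 88.0 and 31.6, and Impact, an inhibitor of the Gcn2 kinase, 394 and 164. Log2 fold changes were 1.38 ± 0.07 for Peg3, 1.67 ± 0.07 for Usp29, 1.49 ± 0.07 for Ndn, 1.58 ± 0.07 for Grb10 and 1.28 ± 0.06 for Impact. Slc22a3, an organic cation transporter, was called at low levels (means 2.09 and 0.886 TPM, 1.803 ± 0.21), as was Rtl1, a retrotransposon-derived protein (9.93 and 4.24 TPM, 1.13 ± 0.08). Rtl1 came to 0.998 without ARH and was then no longer called.

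Grouped by listed copy, 10 of the 19 paternal and 3 of the 14 maternal members (Asb4, Zim1 and Slc22a3) were higher in the hypothalamus. So was 1 of the 3 transcript-dependent members (Grb10). Of all genes, 6.11% were higher. Which copy was read in these tissues was not measured. A further 12 members had an adjusted p under 0.05 with a change under the fold limit. The share of all genes in this class is not given here. Among the 12 were Gnas, the stimulatory G protein alpha subunit (0.51), Blcap (0.69), Mest (0.50) and Ube3a, the ubiquitin ligase of Angelman syndrome (0.37). Mkrn3, a ubiquitin ligase linked to the timing of puberty, was at a mean of 0.825 TPM in the hypothalamus and 1.32 elsewhere (-0.48 ± 0.11, adjusted p = 0.000204, under the fold limit).

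**Figure D2:**
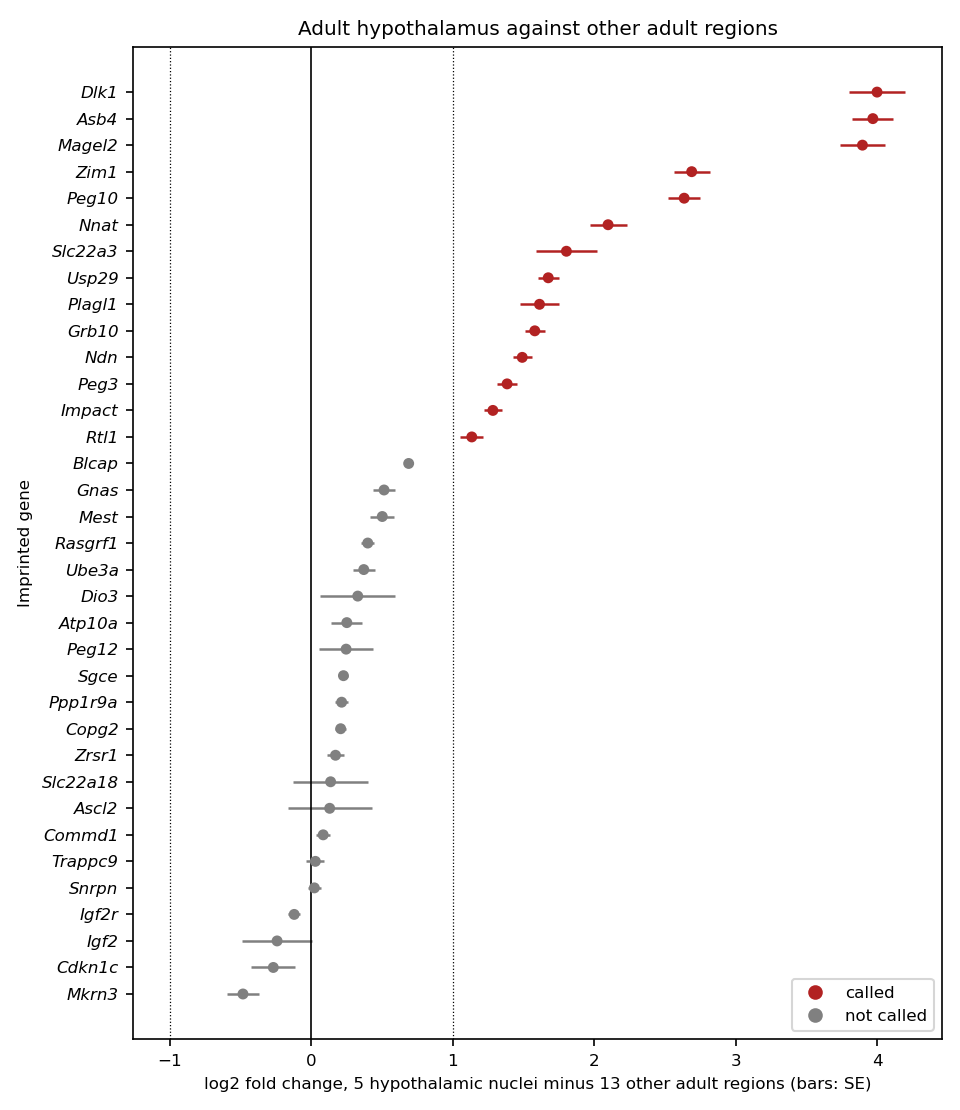
Log2 fold change of imprinted genes in the adult hypothalamus (14 libraries) against the other adult regions (43 libraries), with standard errors from edgeR; 35 of the 36 members are drawn, and Phlda2, which has no standard error, is not. Red points passed the test, and all 14 of them lie to the right of 1.

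**Figure D3:**
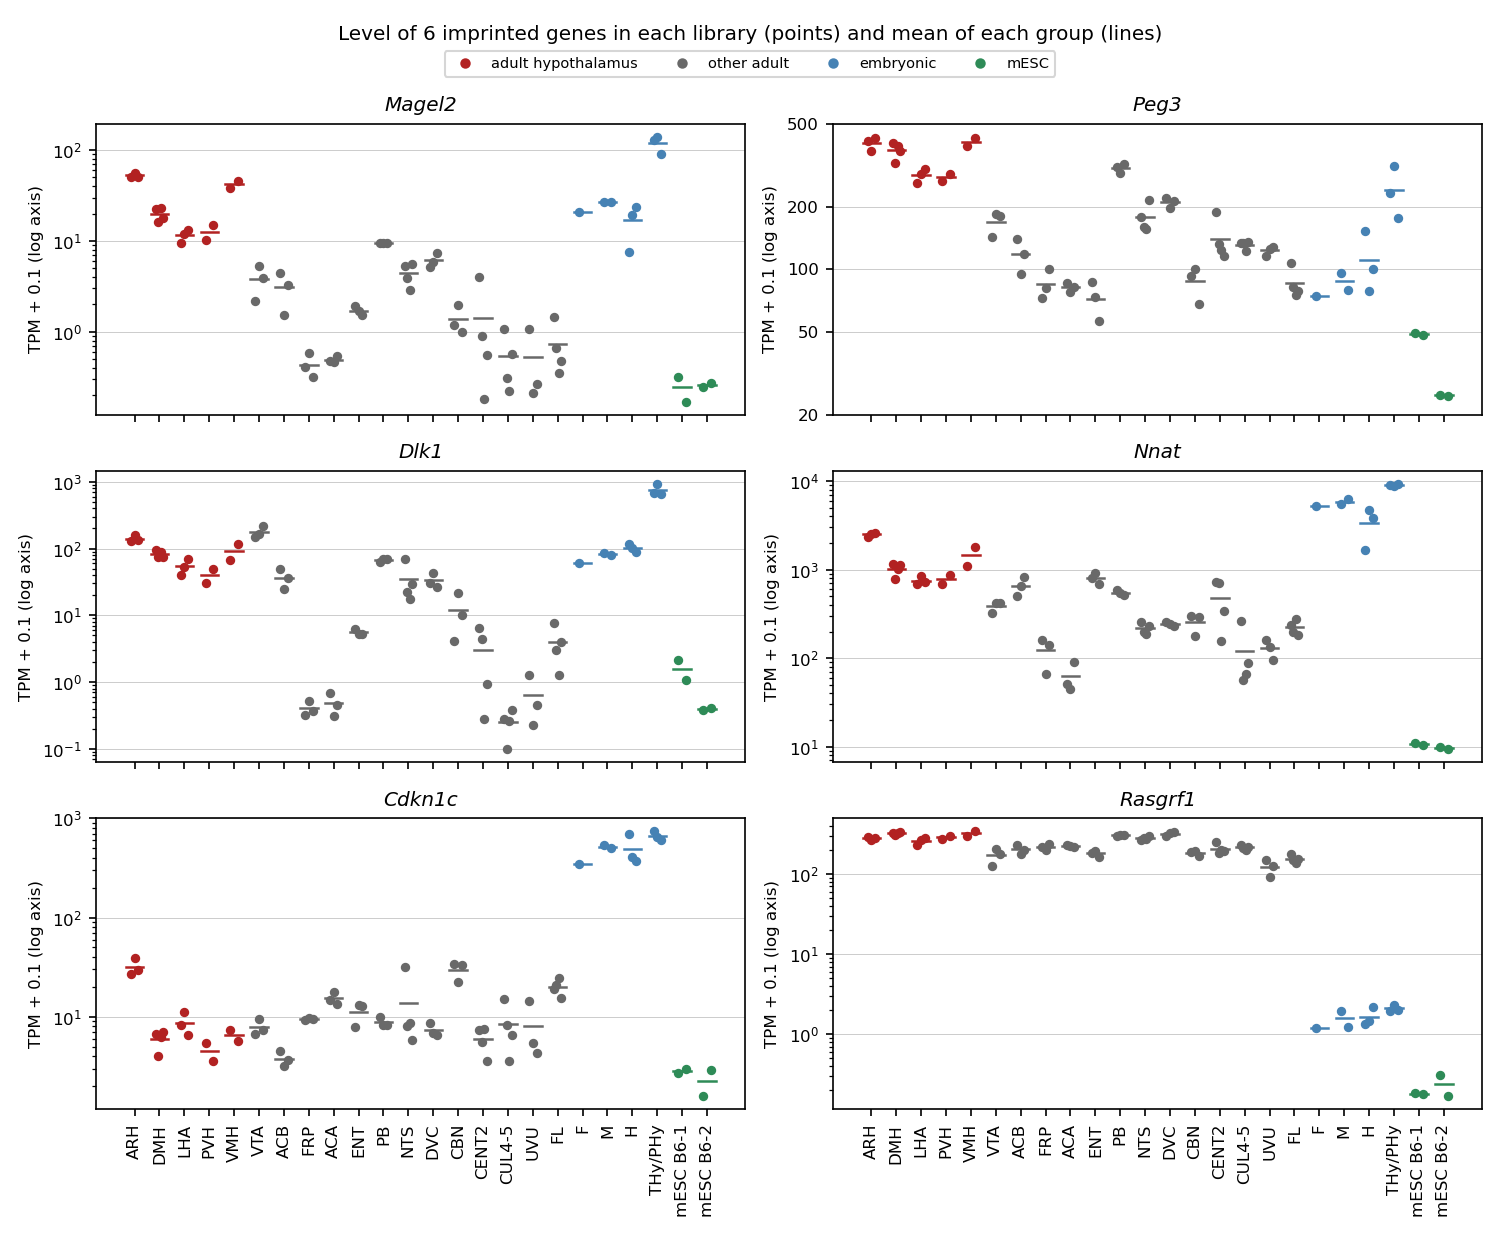
TPM + 0.1 (log axis) of Magel2, Peg3, Dlk1, Nnat, Cdkn1c and Rasgrf1 in every library (points) by group, with the group mean as a line. Dlk1 spans from under 1 TPM in FRP, ACA and CUL4-5 to at least 652 TPM in THy/PHy, and Rasgrf1 is above 90 TPM in every adult library and under 3 TPM in every embryonic one.

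Region by region, nearly all members varied. Among the 18 adult regions, 34 of the 36 members differed at an adjusted p under 0.05, against 80.9% of all genes. The 2 that did not were Phlda2 (adjusted p = 0.427) and Trappc9, a subunit of a vesicle tethering complex (adjusted p = 0.657). When each region was set against the other 17, members were called 175 times, 97 higher and 78 lower. Of these calls, 135 were kept whichever library of the region was left out, and 40 were lost on leaving out 1. Dlk1, Asb4, Magel2, Slc22a3, Zim1 and Peg10 made up the most calls, and Snrpn, Ube3a, Atp10a, Commd1, Zrsr1, Blcap, Igf2r, Copg2, Sgce and Trappc9 were called in no region. These 18 contrasts share libraries, so their calls are not independent of each other. The flattest members, by the ratio of the highest to the median regional mean in TPM, were Commd1, a COMM-domain protein, at 1.13 (132 against 117 TPM), Trappc9 at 1.15 (56.3 against 49.1) and Snrpn at 1.19 (771 in ACA against 648). At the other end stood Dio3 (70.2), Asb4 (30.8), Magel2 (15.7), Zim1 (9.63), Peg10 (7.58), Plagl1 (6.78) and Nnat (5.79), with Phlda2, whose median was 0.

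In each of the 5 hypothalamic nuclei, every call was higher. In ARH, 17 members were higher and 0 lower (8.93% and 3.59% of all genes). Asb4 was higher by 4.99 ± 0.18 (log2, adjusted p = 3.23e-29), Magel2 by 4.20 ± 0.21, Dlk1 by 3.91 ± 0.27, Peg10 by 3.06 ± 0.17, Nnat by 2.73 ± 0.20 and Plagl1 by 2.65 ± 0.21. Cdkn1c, a cyclin-dependent kinase inhibitor (26.9, 39.0 and 29.7 TPM, 1.67 ± 0.21), and Igf2, a growth factor (173, 105 and 87.6 TPM, 1.57 ± 0.38, adjusted p = 0.000593), were higher in ARH but in none of the other 4 nuclei. The summed TPM of meningeal and fibroblast markers was 94.2 to 162 in the ARH libraries and 16.3 to 24.7 in DMH, and that of pituitary markers 76.2 to 117 against 2.02 to 3.71. The part of these cells in the Igf2 and Cdkn1c levels was not tested.

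VMH had 14 members higher (6.02% of genes) and 0 lower (2.69%), led by Magel2 (3.87 ± 0.25) and including Rtl1 (12.5 and 15.6 TPM, 1.48 ± 0.16). DMH had 11 higher (5.68%) and 0 lower (1.56%), LHA 9 (3.36%) and 0 (1.60%), and PVH 7 (3.73%) and 0 (1.28%). Magel2, Asb4, Dlk1, Zim1, Peg10 and Nnat were called in all 5 nuclei. In PVH, which had 2 libraries, Asb4 (1.09, adjusted p = 0.155) and Zim1 (1.16, 0.0612) were lost without replicate 2, Nnat without replicate 1 (1.14, 0.0804) or 2 (0.87, 0.272), and Slc22a3 without replicate 1 (1.57, 0.115). The PVH count was 4 without replicate 2. Nnat was also lost in LHA without replicate 2 (0.93). Plagl1 was higher in ARH, VMH and DMH, with changes of 2.65, 1.47 and 1.23; the VMH call was lost without replicate 2 (0.85, adjusted p = 0.206). Slc22a3 was called in all nuclei but DMH, at no more than 3.39 TPM; its VMH call was lost without replicate 1 (0.97) or 2 (1.37, adjusted p = 0.156) and its LHA call without replicate 1 (1.14, adjusted p = 0.0918) or 2 (1.13). At an unadjusted p under 0.05 by edgeR, 2 members were lower in each of ARH, DMH and PVH, 1 in LHA and 0 in VMH.

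PB, which receives visceral and taste signals and lies in the hindbrain, had 6 members higher and 0 lower (4.17% and 1.68% of genes): Dlk1 (2.90 ± 0.29), Asb4 (2.22 ± 0.23), Magel2 (1.67 ± 0.28), Peg10 (1.64 ± 0.20), Zim1 (1.62 ± 0.22) and Usp29 (1.05 ± 0.14, but 0.99 without PB replicate 3). Dbh, listed as a marker of NTS and DVC, was highest in PB (mean 115 TPM), above CBN (57.8) and DVC (8.71). Th, listed for VTA (639 TPM), was second highest in PB (79.1 TPM). The part of cells with these markers in the PB calls was not tested. At an unadjusted p under 0.05, 1 member was lower in PB and 4 were in DVC. In DVC, 3 members were higher and 0 lower (4.55% and 1.85%), Dlk1 (1.86 ± 0.32) among them, and in NTS 2 and 1 (5.36% and 2.60%), with Dlk1 at 69.8, 22.6, 17.6 and 29.4 TPM. Without DVC replicate 3, Ascl2 (0.21, adjusted p = 0.895) and Magel2 (0.90, adjusted p = 0.0645) were no longer called in DVC. Phlda2 was called in NTS, CENT2 and FL at group means of at most 0.173 TPM, near the limit of detection, and each of these calls was lost on leaving out 1 library (NTS replicate 3 or 4, CENT2 replicate 1 or 4, FL replicate 1 or 2), with adjusted p-values of 0.101 to 0.125; NTS then had 1 member higher.

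VTA had 5 members higher and 1 lower (6.89% and 3.65% of genes). Dlk1 led with 4.91 ± 0.25 (adjusted p = 1.48e-22), and all 3 of its VTA libraries, including replicate 1 with its high mitochondrial share (150 TPM), were above all other adult libraries but ARH replicate 2. Igf2 was also called there (81.8, 44.0 and 14.1 TPM, 1.32 ± 0.39), but the call rested on replicate 1, and without it the value turned to -0.44 (adjusted p = 0.596). Dio3, the deiodinase that inactivates thyroid hormone, was listed at 0 in all 3 VTA libraries.

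Dio3 was instead a gene of the accumbens and the cortex. It reached 8.63, 11.1 and 8.72 TPM in ENT and 6.70, 1.81 and 8.09 in ACB, and stayed at or below 2.33 TPM in every other adult library. It was called higher in ENT (5.96 ± 0.28), ACB (4.82 ± 0.31), FRP (2.83 ± 0.38) and ACA, and in ARH and LHA. ACB had 5 members higher and 5 lower (7.30% and 5.49% of genes). Of these, Igf2 was lost without any 1 of the 3 ACB libraries (-1.13 to -1.35, adjusted p = 0.101 to 0.164), Asb4 without replicate 2 (-0.99), which left 3 lower, and Peg10 without replicate 1 (0.71). Ppp1r9a, the spine scaffold neurabin, was highest in ACB (242, 191 and 198 TPM, all above every other adult library; 1.63 ± 0.07), and Gnas was lowest there (626, 646 and 840.3 TPM; -1.33 ± 0.18).

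The cortex had more members lower than higher, with 2 higher and 9 lower in FRP (7.46% and 5.22% of genes), 2 and 8 in ACA (8.07% and 7.59%) and 3 and 6 in ENT (7.52% and 5.75%). FRP had 1 higher without replicate 1 or 2, as Slc22a3 came to 0.70 and 1.07 (adjusted p = 0.296 and 0.0682). Dlk1, Asb4, Magel2, Peg10 and Zim1 were lower in FRP and ACA, with mean Dlk1 at 0.303 and 0.383 TPM. Nnat parted the cortical areas. It was higher in ENT (806, 909 and 681 TPM, 1.22 ± 0.24) and lower in ACA (50.5, 44.2 and 91.2 TPM, -2.74 ± 0.35) and FRP (160.1, 66.9 and 141 TPM).

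In the cerebellum, most calls were lower, with 2 higher and 9 lower in CENT2 (8.31% and 7.02% of genes), 1 and 13 in CUL4-5 (8.06% and 10.3%), 1 and 12 in UVU (7.25% and 8.67%) and 5 and 11 in FL (7.01% and 4.55%). CBN had 2 higher and 3 lower (7.86% and 2.88%). The lower members of CENT2 numbered 4 without replicate 3 or 4 and 12 without replicate 1, those of CBN 1 without replicate 1 or 3 and 5 without replicate 2, and the 1 higher in UVU, Mkrn3, came to 0.997 without replicate 2. The 4 CENT2 libraries were uneven, with Magel2 at 3.95, 0.807, 0.0831 and 0.449 TPM and Nnat between 157 and 728 TPM. Mkrn3 was highest in CUL4-5 (2.71, 3.06, 3.60 and 3.03 TPM, 1.58 ± 0.14), and every library of CENT2, CUL4-5, UVU and FL (1.86 to 3.60 TPM) was above every other adult library. Igf2 and Cdkn1c were higher in CBN (221, 68.9 and 120.5 and 34.1, 22.4 and 32.9 TPM; 1.96 ± 0.36 and 1.96 ± 0.21) and in FL (132, 151, 163 and 88.4 and 18.8, 20.8, 24.7 and 15.3 TPM; 1.61 ± 0.33 and 1.18 ± 0.20). Summed choroid plexus markers were 3558 to 12857 TPM in CBN and 51.99 to 3105 in FL, against 34.8 to 46.6 in ARH, and none of the 7 markers was at 0 in CBN. Their part in the Igf2 and Cdkn1c levels was not tested.

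Genes of 1 imprinted domain did not always share a pattern. Over the 18 adult regional means, Pearson's r was 0.987 for Ndn and Magel2, 0.934 for Peg3 and Usp29, which share a start region, 0.955 for Usp29 and Zim1, 0.924 for Peg10 and Asb4, and 0.874 for Nnat and Blcap, where Nnat lies inside Blcap on the opposite strand. It was 0.841 for Peg10 and Sgce, 0.728 for Dlk1 and Rtl1, 0.618 for Commd1 and Zrsr1, and 0.429 for Mest and Copg2; the genes of the last 2 pairs overlap on opposite strands. Other pairs ran against each other, with -0.430 for Ndn and Mkrn3, -0.424 for Magel2 and Mkrn3, -0.397 for Igf2r and Slc22a3 and -0.342 for Snrpn and Peg12. Over all 40 pairs of a shared domain the median r was 0.349, and over the 521 pairs from different domains 0.373. Regions share dissection and depth, and the values are descriptions. The libraries kept the strand of the RNA, but whether Kallisto used it is not given in the sources used here, and without it reads from overlapping genes cannot be told apart.

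At the level of transcripts, Gnas, a locus with several starts, varied by region in the use of its most upstream start, the one shown above, which drives 5 of its 24 transcripts. This start gave a mean of 514 TPM in PB, 467 in DVC, 226 in NTS. Its libraries ranged from 68.9 to 457 TPM in the hypothalamic nuclei, with PVH, at 68.9 and 256, the most uneven, against 1.06, 2.22 and 1.14 in ENT, 16.4, 7.47 and 5.17 in ACA and 6.85, 2.20 and 16.7 in UVU. As a share of Gnas this was 23.5% in PB and 0.101% in ENT. The most downstream start gave 445 TPM in ACB and 1851 in ARH, the lowest and the highest adult means. Grb10 had 45.0 TPM from its upstream start and 37.2 from its downstream start as means over the 5 hypothalamic nuclei, 14.3 and 13.9 over the other 13 adult regions, and 103 and 54.5 over the embryonic regions. These splits rest on single reads of 33 bases and were not tested.

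**Figure D4:**
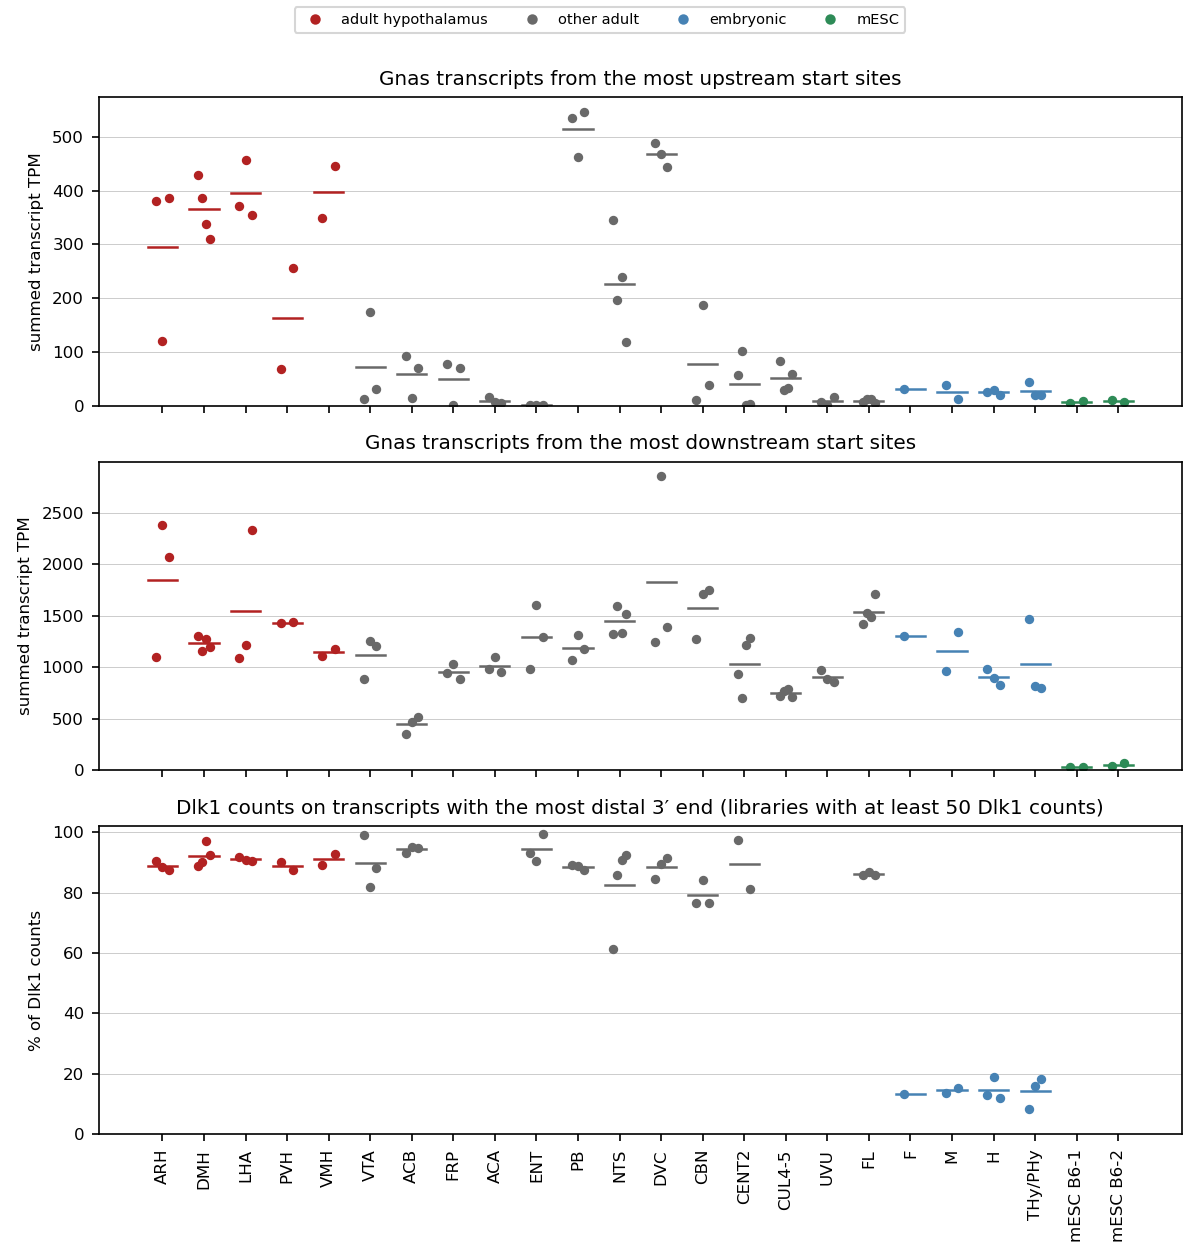
TPM of Gnas transcripts from the most upstream and from the most downstream start in every library by group (top and middle), and the percent of Dlk1 estimated counts on its most distal 3′ end in libraries with at least 50 Dlk1 counts (bottom). The upstream Gnas start is lower in the cortex (at most 78.1 TPM) than in PB, NTS and DVC (at least 119 TPM), and the embryonic Dlk1 shares (8.37% to 19.1%) lie below all adult ones (61.4% to 99.4%).

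The second question was how the same territories differ between E14.5 and P56. In the hypothalamus (3 embryonic against 14 adult libraries), 14 members were higher in the embryo and 6 were lower, against 18.2% and 20% of all genes. The members' median log2 fold change was 0.55 (0.00 for all genes). Cdkn1c, Igf2, Mest, an alpha/beta hydrolase, Nnat, Magel2 and Plagl1 were among the higher, and Rasgrf1, an exchange factor for Ras, and Impact were the lowest. Stage, dissection and batch cannot be told apart here. Several marker lists moved with these calls. Markers of progenitors and young neurons (4 of 4 higher) summed to 695 to 828 TPM in THy/PHy and 16.2 to 37.5 in the adult nuclei, those of meninges and fibroblasts (8 of 8 higher) to 539 to 786 and 16.3 to 162, and those of red cells (5 of 5 higher) to 5111 to 8699 and 406 to 2690. Oligodendrocyte markers (4 of 4 lower) summed to 32.1 to 38.2 and 730 to 10588 TPM, and astrocyte markers (3 of 3 lower) to 4.63 to 17.3 and 126 to 323. No marker of these lists was at 0, and their part in the differences was not tested.

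Cdkn1c stood at 741, 652 and 605 TPM in THy/PHy and 3.45 to 39.0 (median 6.76) in the adult hypothalamus (6.37 ± 0.22, adjusted p = 1.63e-30). Mest was at 462, 500.3 and 360.3 against 24.1 to 64.8 (median 41.3) (3.65 ± 0.15). Igf2 was at 376, 338 and 509 against 16.9 to 173 (median 29.3) (3.67 ± 0.41). The stages did not overlap in any of these 3 genes. Nnat reached 8979, 8900.0 and 9261 TPM (9046 against 1306 TPM as means, 2.995 ± 0.25), the highest level of any member in any group. Magel2 stood at 129.9, 139 and 90.7 (2.42 ± 0.27, adjusted p = 2.82e-11), with every library above the 3 ARH libraries. Mkrn3 rose from the adult 0.327 to 1.14 TPM to 7.26 to 12.4 (3.54 ± 0.17), and Peg12, a Frat-family protein, from a mean of 0.615 to 15.6 (4.70 ± 0.27).

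Dio3 (8.75, 5.85 and 6.84 TPM against a mean of 0.511) and Phlda2 (1.14 against 0.0106 TPM) were also higher, with adult counts near 0, so that no fold is given. Plagl1 (2.20 ± 0.25), Peg10 (1.36 ± 0.23), Igf2r, the receptor that clears Igf2 (33.7 against 14.49 TPM, 1.12 ± 0.08), and Rtl1 (1.02 ± 0.16) completed the higher genes with Dlk1, described below. Rtl1 lay near the fold limit: it was 0.83 without THy/PHy replicate 2, 0.99 without VMH replicate 1 and 1.00 without LHA replicate 1, and was not called in these, nor by limma on log2(TPM + 0.5) (0.93).

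Rasgrf1 was at 1.87, 2.24 and 1.94 TPM in THy/PHy against 229.9 to 341 (median 296) in the adult (-7.03 ± 0.15, adjusted p = 4.14e-39), the largest difference of any member in the hypothalamus. Impact was at 22.3, 19.1 and 17.6 against 307 to 499 (median 398) (-4.28 ± 0.18). Snrpn, of the spliceosome's small nuclear ribonucleoproteins, had means of 243 and 679 TPM (-1.44 ± 0.10), Zrsr1, a splicing factor retrogene, 13.4 and 53.1 (-1.92 ± 0.14), and Atp10a, a phospholipid flippase, 2.39 and 6.03 (-1.25 ± 0.25). Slc22a3 was lower at 0.721 against 2.09 TPM (-1.44 ± 0.50, adjusted p = 0.00964), but not without THy/PHy replicate 1 (-1.17, adjusted p = 0.0747). Judged by libraries, 14 members had every embryonic library above every adult one and 7 every one below, against 19.6% and 21.7% of genes.

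In the hindbrain (3 H libraries against 10 of PB, NTS and DVC), 15 members were higher in the embryo and 7 lower, against 23.0% and 21.1% of all genes, and the members' median was -0.11 (0.02 for all genes). Marker lists moved here too, and their part was not tested. Those of meninges and fibroblasts (8 of 8 higher) summed to 509 to 1056 TPM in H and 20.1 to 43.6 in the adult hindbrain, and those of red cells (5 of 5 higher) to 3695 to 8226 and 985 to 3546. Choroid plexus markers (6 of 7 higher, 1 lower) summed to 633 to 2094 and 6.09 to 10783 TPM, progenitor and young-neuron markers (4 of 4 higher) to 552 to 837 and 10.5 to 15.03, and oligodendrocyte markers (4 of 4 lower) to 14.9 to 31.2 and 8026 to 12074. Cdkn1c was at 703, 405 and 376 TPM in H and 5.79 to 31.7 (median 8.12) in the adult (6.07 ± 0.24), Igf2 at 1342, 424 and 533 and 13.3 to 158 (median 23.4) (5.36 ± 0.46), and Plagl1 at 225, 74.8 and 82.1 and 9.11 to 15.0 (median 10.7) (4.28 ± 0.27). H replicate 1 was the highest of the 3 in each of these genes. Mest (3.59 ± 0.16), Nnat (3.53 ± 0.27), Mkrn3 (2.45 ± 0.19), Peg12 (3.78 ± 0.30), Magel2 (1.46 ± 0.31), Peg10 (1.42 ± 0.24) and Igf2r (1.34 ± 0.08) were higher as in the hypothalamus, and Grb10 (156 against 55.9 TPM, 1.84 ± 0.15) and Asb4 (12.7 against 6.43, 1.41 ± 0.28) were called here. Dio3 and Phlda2 were higher at adult means of 0.0448 and 0.0577 TPM. Zim1 (1.18 ± 0.27) rested on H replicate 1 (29.4, 7.39 and 11.1 TPM in the 3 libraries) and came to 0.18 without it (adjusted p = 0.589), and to 0.50 by limma on log2(TPM + 0.5) (adjusted p = 0.162).

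Rasgrf1 (1.25, 1.38 and 2.06 TPM against 269 to 333 (median 300.1); -7.38 ± 0.16) and Impact (12.97, 15.4 and 24.5 against 204 to 343 (median 246); -3.84 ± 0.18) were again the lowest, and Snrpn, Zrsr1 and Atp10a were lower by -1.96, -1.52 and -1.98. Trappc9 had means of 18.001 and 48.8 TPM (-1.42 ± 0.15). Gnas, at 1026, 977 and 908 TPM against 1926 to 3810.0 (median 2197), lay at the fold limit (-1.00004 ± 0.19). It was not called without H replicate 3 (-0.78), H replicate 2 (-0.99), DVC replicate 2 (-0.89), PB replicate 2 or 3 (both -0.99), NTS replicate 2 (-0.98), or NTS replicate 1, where it was just short of the limit, nor by DESeq2 (-0.95). By libraries, 12 members were all higher and 9 all lower, against 20.4% and 23.8% of genes.

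Dlk1 behaved differently on the scale of counts and on the scale of TPM. In THy/PHy it stood at 676, 920.5 and 652 TPM, against 30.1 to 159.6 (median 74.7) in the adult hypothalamus, and in H at 115, 102.2 and 89.2 against 17.6 to 70.01 (median 36.6) in the adult hindbrain. Embryonic libraries were above all adult ones of the same territory in TPM. From estimated counts the log2 fold change was 1.35 ± 0.34 (adjusted p = 0.000449) in the hypothalamus and -0.80 ± 0.41 (adjusted p = 0.0778, not called) in the hindbrain. From limma on log2(TPM + 0.5) it was 3.32 (adjusted p = 3.65e-10) and 1.32 (adjusted p = 0.00436). Per TPM, Dlk1 received fewer counts in the embryo, by a log2 difference of -1.9997 (hypothalamus) and -2.22 (hindbrain) relative to the median gene, as far as 0.165% and 0.178% of genes. Longer transcripts give more counts per TPM. Of the Dlk1 transcripts, 3 end at position 109463336 of chromosome 12 (GRCm38) and 7 end between 109453782 and 109460700. The distal end took 61.4% to 99.4% of Dlk1 counts (median 89.5%) in the 41 adult libraries with at least 50 counts, the lowest in NTS replicate 1, and 8.37% to 19.1% (median 13.8%) in the 9 embryonic libraries. The 2 stages did not overlap. In TPM the transcripts with nearer ends had means of 58.4 to 727 in the embryonic regions and 10.5 to 38.3 in the adult hypothalamic nuclei, and the distal ones 2.61 to 22.2 and 29.6 to 103. Kallisto divided the reads among transcripts, and the shares were not tested. Of 33 members measured, Dlk1 alone had counts and TPM that parted by more than 1 on the log2 scale between the stages.

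The difference between the hypothalamic and the hindbrain change was tested itself, in an interaction term. It was called for 4 members. The difference, hypothalamus minus hindbrain, was positive for 3 (3.46% of all genes) and negative for 1 (6.38%). For all genes, the sign does not tell in which territory the change was larger in size. Dlk1 differed by 2.15 ± 0.55 (adjusted p = 0.00224; 2.00 and 0.0106 from TPM), Rtl1 by 1.32 ± 0.25 (6.68e-05), Mkrn3 by 1.09 ± 0.28 (0.00227) and Plagl1 by -2.08 ± 0.42 (0.000159). In the same term, 4 of 4 oligodendrocyte markers were called with a positive difference (median 2.15), and 2 of 7 choroid plexus (median -3.24) and 2 of 4 progenitor and young-neuron markers (median -0.99) with a negative one; their part in the members' values was not tested. Dlk1 and Rtl1 are neighbours in 1 imprinted domain. Rtl1 was at 18.1, 22.3 and 14.3 TPM in THy/PHy and 3.94, 3.68 and 3.76 in H. The count of 4 became 2 without H replicate 1 and 7 without H replicate 3. Without H replicate 1, Plagl1 came to -0.999 (adjusted p = 0.0439) and Mkrn3 to 0.98, both short of the fold limit, and Mkrn3 came to 0.94 without THy/PHy replicate 1.

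**Figure D5:**
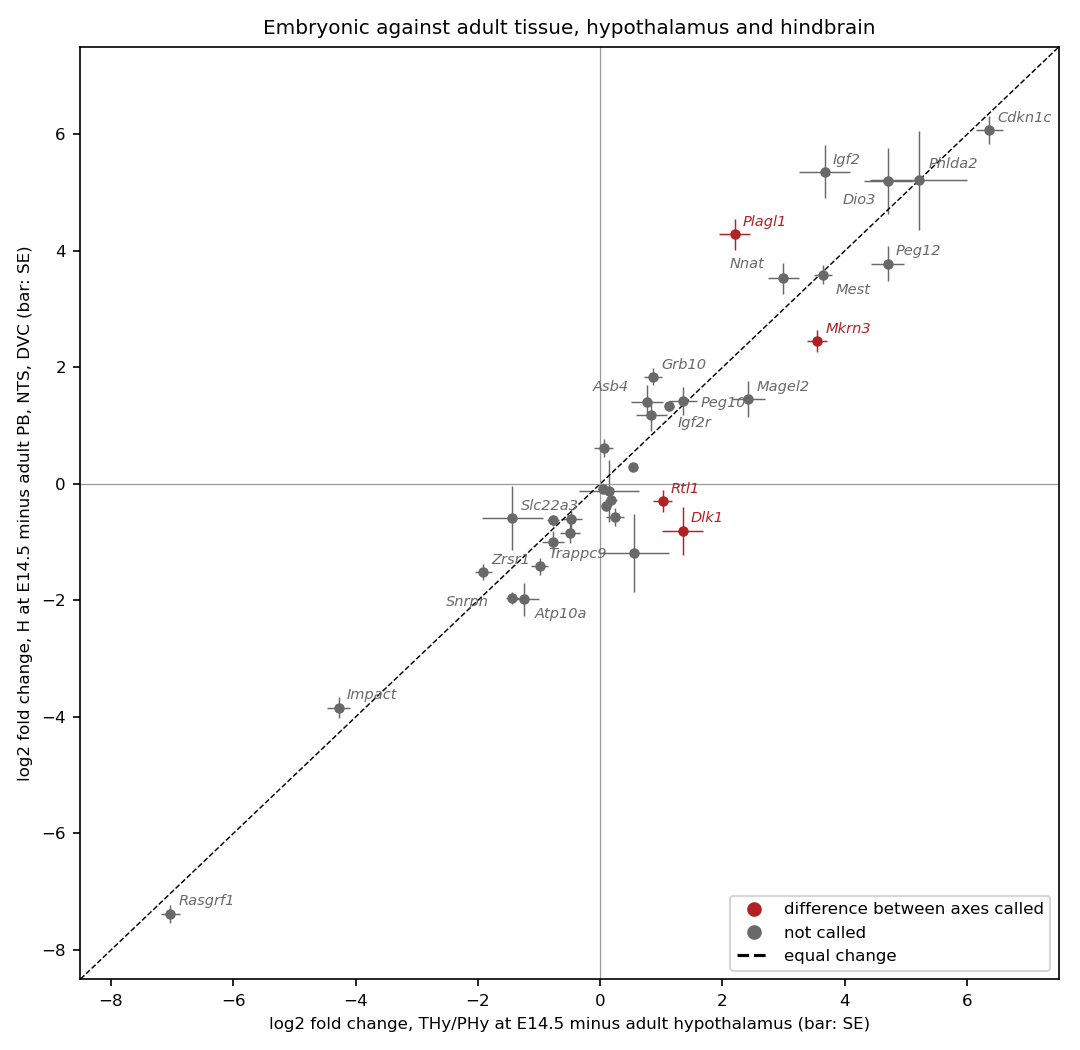
Log2 fold change of each imprinted gene between embryo and adult in the hypothalamus (x axis) and in the hindbrain (y axis), from edgeR on estimated counts; the 4 genes whose difference between the territories was called are in red. Rasgrf1 lies near -7 on both axes and Cdkn1c above 6 on both, and Dlk1 is positive in the hypothalamus and negative in the hindbrain on this count scale.

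In mESC, compared with the embryonic brain (4 against 9 libraries), 25 members were lower and 4 were higher, against 29.0% and 26.8% of all genes. The members' median log2 fold change was -1.82. Nnat was at 9.35 to 10.8 TPM in mESC and 1668 to 9261 (median 5487) in the embryonic brain (-8.83 ± 0.45), Cdkn1c at 1.49 to 2.87 and 349 to 741 (median 535) (-7.33 ± 0.36), and Igf2 at 0.732 to 3.30 and 97.2 to 1342 (median 376) (-7.41 ± 0.72). Magel2, Asb4 and Dlk1 had mESC means of 0.151, 0.152 and 0.892 TPM against 46.0, 24.7 and 249. Ndn (-5.30 ± 0.20), Usp29 (-4.05 ± 0.21), Zim1 (-4.02 ± 0.37), Gnas (67.9 against 1271 TPM, -3.90 ± 0.20) and Sgce, the epsilon-sarcoglycan (-3.60 ± 0.09), followed. In 24 members every mESC library was below every embryonic one (29.6% of genes).

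The 4 higher members were Phlda2 (12.03 against 0.857 TPM, 4.65 ± 0.59), Ascl2 (2.33 against 0.208, 4.01 ± 0.50), Impact (37.8 against 18.1, 1.45 ± 0.13) and Slc22a18, a transporter (1.03 against 0.711, 1.08 ± 0.46, adjusted p = 0.0314). Slc22a18 was not called without F replicate 1 (0.95), M replicate 2 (1.00), or any 1 of the 4 mESC libraries (1.05 to 1.11). Rasgrf1 (-3.49), Rtl1 (-3.34), Grb10 (-2.88), Mest (-2.18), Blcap (-2.07), Peg10 (-1.96), Ppp1r9a (-1.69) and Plagl1 (-1.57) were lower, as was Slc22a3 at means of 0.0391 and 0.515 TPM. Mkrn3 (-1.34), Peg3 (-1.38), Snrpn (-1.33), Trappc9 (-1.32) and Ube3a (-1.05) were lower by less than the median member. The 7 members not called were Atp10a, Peg12, Copg2, Commd1, Igf2r, Dio3 and Zrsr1, with values between -0.999 for Atp10a and 0.67 for Zrsr1. Ube3a came to -0.89 by DESeq2 or with its size factors and to -0.96 without M replicate 2, and Slc22a3 to -0.78 by limma on log2(TPM + 0.5), all short of the fold limit. Markers of neurons (4 of 4), meninges and fibroblasts (8 of 8), red cells (5 of 5) and choroid plexus (5 of 7, with 1 higher) were lower in mESC, where they summed to 141 to 156, 17.9 to 39.9, 1.44 to 2.28 and 148 to 179 TPM, against 418 to 1277, 219 to 1056, 3695 to 9805 and 17.2 to 2094 in the embryonic brain. Among these, Sostdc1, Ttr and Hbb-bs were at 0 in at least 1 mESC clone. Their part was not tested. Culture, stage and batch cannot be told apart in this comparison.

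The 2 mESC clones differed in 4 members, 3 higher in B6-1 (0.220% of all genes) and 1 lower (0.115%). Rtl1 was at 2.03 and 1.67 TPM in B6-1 and 0.0753 and 0.0754 in B6-2 (adjusted p = 3.5e-10; few counts in B6-2), Peg10 at 48.6 and 43.7 and 16.6 and 16.2 (1.59 ± 0.40, adjusted p = 0.0346), and Peg3 at 49.5 and 48.1 and 24.8 and 24.7 (1.05 ± 0.25, adjusted p = 0.0206). Grb10 went the other way, at 11.6 and 12.7 and 31.6 and 30.5 TPM (-1.61 ± 0.25, adjusted p = 6.22e-05). Sgce, beside Peg10, was at 3.49 and 3.08 and 1.67 and 2.28 TPM (0.95 ± 0.15, adjusted p = 0.00245, under the fold limit). Peg10 and Peg3 lost the call when any 1 of the 4 libraries was left out, with changes of 1.49 to 1.68 for Peg10 and 1.01 to 1.08 for Peg3. The libraries of a line are of 1 clone, so the values compare these clones only.

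Other imprinted protein-coding genes were read from a list of 28, of which 27 were tested. In the adult hypothalamus 7 were higher and 0 lower (6.11% and 2.74% of all genes), led by Calcr, the calcitonin receptor (16.9 against 1.85 TPM, 5.11), with Cpa4 and Klf14 next at mean levels under 1 TPM. In the embryonic hypothalamus 4 were higher and 7 lower (18.2% and 20% of all genes), with Nap1l5 at 88.1 against 1309 TPM (-3.81) and Kcnk9, a potassium channel, at 1.93 against 27.4 (-3.80). In the embryonic hindbrain 4 were higher and 8 lower (23.0% and 21.1%), and in mESC 8 were higher and 16 lower (26.8% and 29.0%). A further list held 13 genes that set, keep or remove DNA methylation or bind at imprints, with the Tet enzymes of removal among them. Of these 13, 10 were higher and 1 lower in the embryonic than in the adult hypothalamus. The same numbers held in the hindbrain. Uhrf1, which guides maintenance methylation to new DNA, had 31.5 against 0.938 TPM (5.73) and Zfp57, a zinc-finger protein that protects imprints, 186 against 22.5 (3.27) in the hypothalamus. Zfp57 was the only one of the 13 called in the adult hypothalamus (22.5 against 9.01 TPM, 1.27). In mESC 9 were higher and 1, Tet3 (-3.64), lower, with Dnmt3b, a DNA methyltransferase, at 70.3 against 3.59 TPM (4.85).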

How the data were processed

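RNA-Seq was performed by the authors on 70 libraries, with single reads of 33 cycles. Per the methods and labels, they quantified transcripts with Kallisto on GRCm38, base calls having been made with CASAVA 1.8.2, and deposited estimated counts per transcript, not normalized between libraries. They also deposited TPM per gene, scaled within each library. Here, estimated counts were summed over GENCODE release 21 genes and rounded; 0.418% to 0.767% of counts fell on unmatched transcripts. The TPM of matched Rtl1 and Igf2r transcripts was lower than the deposited gene TPM, by 50% and 7.45% over all libraries. Whether their counts are incomplete or the deposited gene TPM too high was not tested. The Rtl1 and Igf2r levels quoted are the deposited ones. From deposited TPM, the embryonic Igf2r calls were kept by limma (1.21 in the hypothalamus, 1.49 in the hindbrain).

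Counts were tested with the quasi-likelihood test of edgeR 4.0.16 (R 4.3.3) after filterByExpr and TMM scaling, with all 70 libraries in 1 model of 24 groups, region means weighing equally, and Benjamini-Hochberg adjustment over 19980 genes. Limits for a call were 0.05 on the adjusted p and 1 on the size of the log2 fold change; ± is the SE of a log2 fold change. Alternatives used DESeq2 1.42.0, limma 3.58.1 on log2(TPM + 0.5) or log2(TPM + 0.1), other scalings, no low-count filter, pooled adult groups, a replicate block, no fold limit, and 70 refits that each left out 1 library. On simulated data with 200 changed genes, 182 of the 185 that passed the filter were called, and 3 of 17776 unchanged genes. The simulated libraries were independent and had no other difference between regions, unlike the real ones, so these rates need not hold for the real data. For each comparison, the called members were named, up to 12 by absolute fold change, with the 8 members of the highest ratio of top to median adult region and members of overlapping or neighbouring pairs, and other members where a count called for them, chosen after their values were seen. Members and gene lists were chosen with earlier results of these data known. Replicates of a region differed by more than counting noise (chi-square per gene at least 2.59), and no 2 libraries were identical. The study lists the batches of each region's samples without naming the library, so no within-batch value could be made. Promoter windows and their sequences are from RefSeq on GRCm38.p6. Figures were drawn with matplotlib 3.10.9 in Python 3.11.15.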

Additional observations from a re-analysis of the deposited data

Results flagged for a closer look

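In groups of 4 libraries, 9 of 146 member and group pairs had 1 library far from the other 3 by Dixon's test, where chance gives about 1 in 20. NTS replicate 1, the library with high choroid plexus markers, was far above the other 3 NTS libraries in Igf2 (158 TPM against 13.3 to 30.2), Cdkn1c (31.7 against 5.79 to 8.63) and Igf2r (15.3 against 11.2 to 11.6). In CUL4-5, replicate 1 was above the rest in Igf2 (139.8 TPM against 48.9 to 52.3) and Nnat (264 against 56.04 to 88.9), and it had the highest summed meningeal markers of that region. FL replicate 1 stood apart in Mkrn3 (2.70 TPM against 2.13 to 2.17) and in Copg2, a coatomer subunit (51.1 against 44.5 to 45.1). Ndn was 172 TPM in CENT2 replicate 1 against 85.2 to 98.6 in the others, and Ube3a was 85.7 TPM in NTS replicate 4 against 56.3 to 59.6. The part of other cells in these values was not tested.

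For 4 members the change between embryo and adult differed between hypothalamus and hindbrain in the interaction term. On the log2 scale Dlk1 differed by 2.15, Rtl1 by 1.32, Mkrn3 by 1.09 and Plagl1 by -2.08. Of all genes, 3.46% were called with a positive and 6.38% with a negative difference, so the count alone does not set the members apart. The 3 H libraries had Plagl1 at 225, 74.8 and 82.1 TPM and the THy/PHy libraries at 88.1, 146 and 97.1, so that H replicate 1 alone was above THy/PHy. Without H replicate 1 the Plagl1 value was -0.999 (adjusted p = 0.0439).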

How the results depend on the processing

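Of 93 calls of members, each comparison counted, 80 were kept under every alternative, 13 were lost under at least 1, and 0 reversed. Single regions are not among these; there Igf2 in VTA turned to -0.44 without VTA replicate 1. Without the fold limit the members called rose from 14 to 26 in the adult hypothalamus and from 4 to 9 for the difference between the territories. Over the single regions they rose from 175 to 355. The share of all genes called without the fold limit is not given here, so these counts do not set the members apart. Leaving out 1 library gave 14 to 14 calls in the adult hypothalamus, 19 to 21 in the embryonic hypothalamus, 21 to 22 in the embryonic hindbrain, 2 to 7 for the difference between the territories (2 without H replicate 1, 7 without H replicate 3), 27 to 30 in mESC, 2 to 3 between the clones (2 without either B6-1 library or without B6-2 replicate 1), 33 to 34 among all adult regions and 169 to 177 over single regions. Replicate numbers were taken as names that do not pair the libraries. Of pairs with the same number, 140 of 436 correlated above 0.1 (median r 0.036). Of pairs with other numbers, 241 of 1095 did (median r -0.011). Libraries of the same number were thus slightly more alike, and the main tests did not use the number. With the number as a replicate block, the calls were 14, 20, 21, 4, 30, 4, 33 and 174 in the same order. Scaling by library totals moved the median of all genes by 0.11 in the embryonic hypothalamus, 0.15 in the hindbrain and -0.14 in mESC, and limma moved it by up to -0.28 in mESC. Depth limits Phlda2, Ascl2 and, outside ENT and ACB, Dio3, whose adult values rest on few counts.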
